A study of Homo sapiens with 16 samples.

Results

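The genes of cholesterol synthesis described here were 8 symbols taken from a list of 60623 genes: HMGCS1, IDI1, FDPS, FDFT1, SQLE, MSMO1, DHCR7 and INSIG1. They were picked by symbol, with earlier results of these data already known, so they are not a set independent of these values. Of these, 7 encode enzymes of the pathway and INSIG1 encodes a sterol sensor, so that no receptor for cholesterol uptake was among them. Their mRNA was measured in 16 libraries of polyadenylated RNA from 2 established human tumour lines on a gut-liver chip. Caco-2, from a colon carcinoma, served as the gut part, and HepG2, from a hepatocellular carcinoma, served as the liver part. Each line was cultured alone (mono-culture) or joined to the other line by circulating medium (co-culture), and each culture was left without free fatty acids (control) or received FFA at 1 mM (palmitic plus oleic acid, with fatty-acid-free albumin as carrier). This gave 4 groups per line and 8 groups in all, with 2 replicate libraries each. According to the labels the cells were sampled after 1 day, whereas the methods of the study describe a longer FFA treatment for sequencing, and this difference was not settled. Both lines are tumour lines, so each stands for a single genetic background and not for normal enterocytes or hepatocytes.

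Cholesterol is built from acetyl-CoA in a long chain of reactions in the cytosol, the peroxisome and the endoplasmic reticulum. When sterols in the endoplasmic reticulum run low, the transcription factor SREBP2 is released from its anchor and raises transcription of most enzymes of the chain together. When sterols are plentiful, INSIG proteins hold the SREBP-SCAP complex back, and INSIG1 is itself a target of SREBP, so its mRNA is commonly read along with those of the enzymes. Liver and intestine are the main organs of cholesterol synthesis and export in the body. HMGCS1 makes HMG-CoA at the start of the mevalonate route. IDI1 isomerises isopentenyl diphosphate and FDPS joins the isoprenoid units to farnesyl diphosphate. FDFT1 condenses farnesyl diphosphate to squalene, and SQLE oxidises squalene to its epoxide. MSMO1 removes methyl groups from position C4 of the sterol ring, and DHCR7 carries out the last reduction that yields cholesterol.

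The promoters of the members whose levels differed most between groups, together with that of IDI1, are shown because genes of this pathway are known to be controlled through short elements close to the start site. The SREBP element is typically flanked by the CCAAT box of NF-Y. RefSeq promoter windows on GRCh38.p14 were at hand for 6 of the 8 genes. Each run below is the longest stretch of the 250 bases before the start site that lies outside annotated exons of the gene. The start site was that of the canonical transcript. For DHCR7, INSIG1 and MSMO1 it lies inside the span of the gene, so their runs of 208, 148 and 248 bases stop short of it. Capitals mark CCAAT or its complement ATTGG, and in INSIG1 also the single match of CACNCCAC. MSMO1 is shown on the plus strand at chr4:165327419-165327666, DHCR7 on the minus strand at chr11:71448436-71448643, IDI1 on the minus strand at chr10:1049120-1049369 and INSIG1 on the plus strand at chr7:155297628-155297775.
MSMO1: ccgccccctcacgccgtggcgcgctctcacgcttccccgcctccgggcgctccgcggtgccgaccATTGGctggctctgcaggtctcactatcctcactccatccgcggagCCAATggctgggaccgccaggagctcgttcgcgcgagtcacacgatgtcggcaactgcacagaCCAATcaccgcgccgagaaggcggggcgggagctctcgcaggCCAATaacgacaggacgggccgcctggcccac
DHCR7: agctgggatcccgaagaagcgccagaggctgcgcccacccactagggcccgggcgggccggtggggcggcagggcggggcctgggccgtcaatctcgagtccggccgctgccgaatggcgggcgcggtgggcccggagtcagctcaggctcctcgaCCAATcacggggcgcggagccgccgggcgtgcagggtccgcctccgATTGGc
IDI1: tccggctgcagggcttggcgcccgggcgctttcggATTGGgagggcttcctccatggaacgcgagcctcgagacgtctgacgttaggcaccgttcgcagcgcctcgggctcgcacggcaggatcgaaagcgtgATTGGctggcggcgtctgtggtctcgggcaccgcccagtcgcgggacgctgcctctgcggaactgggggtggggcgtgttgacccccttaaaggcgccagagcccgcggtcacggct
INSIG1: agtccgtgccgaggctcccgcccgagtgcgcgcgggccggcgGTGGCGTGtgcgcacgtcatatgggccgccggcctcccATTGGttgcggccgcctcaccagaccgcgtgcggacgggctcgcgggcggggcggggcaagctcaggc

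Both strands of the 250 bases before the start site were searched. CCAAT was found in 6 of the 6 promoters, 14 times in all, against 32.0% of 34788 RefSeq promoter windows of that length. At least 2 copies were found in 5 of the 6, against 9.53% of all windows, and MSMO1 held 4. CACNCCAC, a loose form of the sterol regulatory element, occurred in 1 of 6 (INSIG1) against 4.87% of all windows, and the E-box CACGTG also occurred in INSIG1 alone against 6.31%. A match is a run of letters, and binding was not measured.

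By GENCODE 44 on GRCh38, HMGCS1 spans 43287470 to 43313512 on the minus strand of chromosome 5, IDI1 spans 1039152 to 1049119 on the minus strand of chromosome 10, and FDPS spans 155308748 to 155320666 on the plus strand of chromosome 1. MSMO1 spans 165327667 to 165343164 on the plus strand of chromosome 4, DHCR7 spans 71428193 to 71452868 on the minus strand of chromosome 11, and INSIG1 spans 155297776 to 155310235 on the plus strand of chromosome 7. FDFT1 and SQLE are on chromosome 8. All are protein-coding. Exons of HMGCS1 overlap those of an antisense lncRNA, ENSG00000261604, which held 184 reads over all libraries. DHCR7 overlaps a lncRNA on the opposite strand, ENSG00000254682, outside its exons (726 reads). Whether the counting used strand is not given in the sources used here, so reads of these partners cannot be fully separated. Processed pseudogenes named after IDI1 and FDPS held 2 reads or fewer each.

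Values are given in CPM, a gene's reads divided by the library total on a fixed scale, and whole reads were recovered from them. Libraries held 49634 to 1657430 reads, so that 1 read stood for 0.603 to 20.1 CPM, and a detection floor of 3 reads came to 1.81 to 60.4 CPM. The shallowest libraries were the HepG2 co-culture FFA replicates, with 147096 and 49634 reads, where the members other than INSIG1 held 3 to 67 reads each. Floors and counting intervals cover counting error only, since amplified cDNA reads are not independent molecules. For 12 of 14 hepatocyte markers, every HepG2 library exceeded every Caco-2 library. Of 12 enterocyte markers, only CDH17, MUC13 and PHGR1 separated the lines this way, and CDX1 had no read in any group, so most of the enterocyte markers listed did not set Caco-2 apart. The study's methods state that its mRNA-seq rested on independent experiments, but the labels do not tie these replicates to separate chips or experiments, so p values measure the spread between these libraries, part of which may be technical. In bulk RNA, fewer cells that express a gene and less of its mRNA per cell cannot be told apart.

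In Caco-2 mono-culture, all 8 genes had a higher mean with FFA than without, by 0.13 to 0.59 on the log2 scale, but no gene passed the test. IDI1 was at 320 and 233 CPM in the control and at 440 and 355 CPM with FFA. DHCR7 was at 63.0 and 41.1 CPM in the control and at 79.1 and 75.5 CPM with FFA. FDPS was at 400 and 358 CPM in the control and at 589 and 469 CPM with FFA. For these 3 genes both FFA libraries lay above both control libraries. HMGCS1 went from 151 and 114 CPM to 185 and 164 CPM, FDFT1 from 285 and 266 CPM to 321 and 354 CPM, and MSMO1 from 498 and 422 CPM to 581 and 614 CPM, again without overlap. The groups overlapped for SQLE, at 21.9 and 19.98 CPM in the control and 29.7 and 17.7 CPM with FFA, and for INSIG1, at 164 and 110 CPM in the control and 131 and 177 CPM with FFA. Thus 6 of 8 genes were higher in both FFA libraries than in both controls, as were 16% of all genes tested (23.0% of genes averaging 50 CPM or more).

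The plot of levels by library shows these values for both lines.

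**Figure D1:**
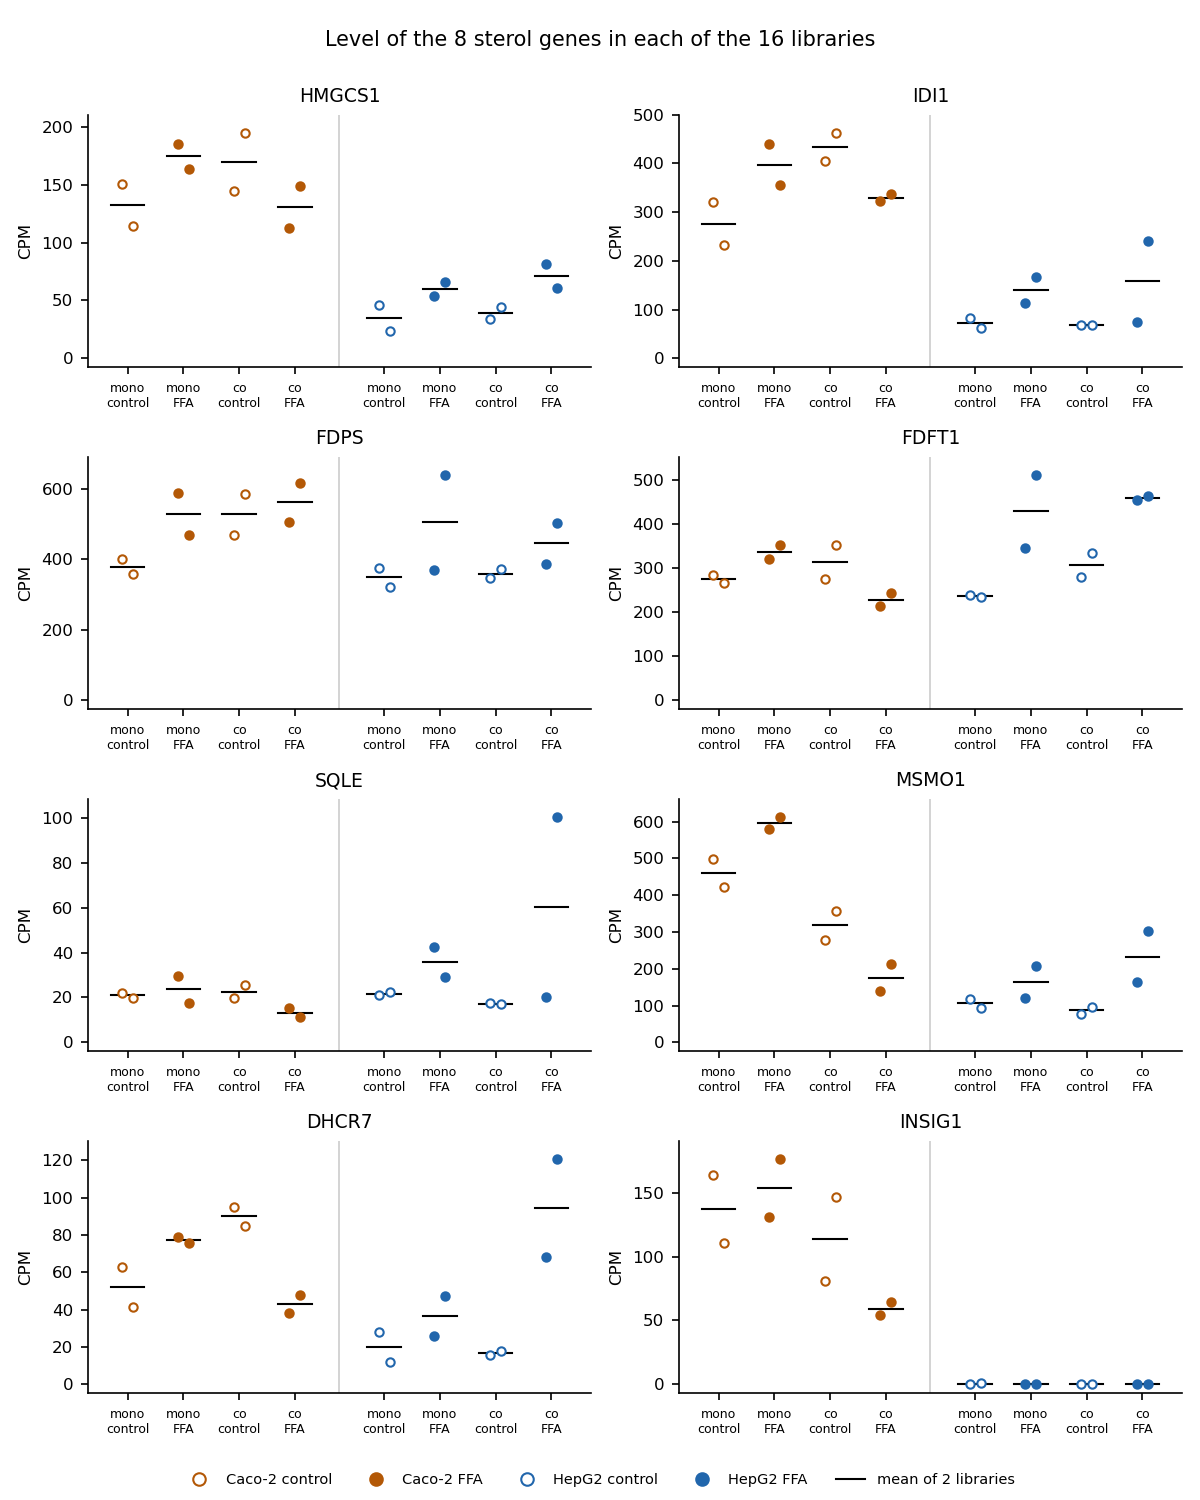
Level in CPM (vertical axes, linear, separate for each gene) of the 8 sterol genes in each group (horizontal axis), with 1 point per library, open for control and filled for FFA, and a bar at the mean of the 2 libraries. In Caco-2 (orange), MSMO1 is highest in mono-culture FFA at 581 and 614 CPM and lowest in co-culture FFA at 139 and 212 CPM, and INSIG1 is near 0 in all HepG2 libraries (blue).

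The test was limma, a linear model that borrows information on spread across genes, fitted to log2 of CPM plus 1 over the 8 Caco-2 libraries, with p values adjusted by the Benjamini-Hochberg method over all genes. On this scale the changes of low genes are understated. Here 0 of 8 members passed an adjusted p under 0.05 for FFA in mono-culture, while 0.00647% of 15454 genes passed. Unadjusted p values under 0.05 were found for 3 of the 8, against 5.80% of all genes, and edgeR, a count model applied to the recovered reads, also gave 0 of 8 (0.152% of 4595 genes). The 3 changes were 0.53 for IDI1 (SE 0.17, limma adjusted p = 0.837), 0.47 for FDPS (SE 0.16, adjusted p = 0.837) and 0.59 for DHCR7 (SE 0.27, adjusted p = 0.837). The median change of the members was 0.40, against 0.02 over all genes, and it was 0.25 without mono-culture control replicate 2. The share of mitochondrial reads was 2.73% and 2.76% in the control and 3.66% and 3.97% with FFA, and its part in these values was not tested.

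In Caco-2 co-culture the genes were lower with FFA, except FDPS. DHCR7 was at 95.1 and 84.8 CPM in the control and at 38.0 and 48.0 CPM with FFA. MSMO1 was at 279 and 356 CPM in the control and at 139 and 212 CPM with FFA. INSIG1 was at 81.2 and 147 CPM in the control and at 54.4 and 64.1 CPM with FFA. In each of these genes both FFA libraries lay below both controls. IDI1 went from 404 and 463 CPM to 322 and 336 CPM, FDFT1 from 275 and 353 CPM to 213 and 244 CPM, and SQLE from 19.8 and 25.4 CPM to 15.4 and 11.1 CPM, also without overlap. HMGCS1, at 145 and 195 CPM against 113 and 149 CPM, and FDPS, at 470 and 585 CPM against 506 and 617 CPM, overlapped. Thus 6 of 8 genes were lower in both FFA libraries, as were 14.9% of all genes (24.4% of those averaging 50 CPM or more).

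None of these changes passed the test after adjustment. limma gave 0 of 8 members, as it gave 0% of all genes, and edgeR gave 0 of 8 (0.109% of all genes), while unadjusted limma p values under 0.05 were found for 5 of 8, against 4.88% of all genes. The changes were -1.05 for DHCR7 (SE 0.27, limma adjusted p = 0.862), -0.88 for MSMO1 (SE 0.19, adjusted p = 0.806), -0.88 for INSIG1 (SE 0.29, adjusted p = 0.862), -0.45 for FDFT1 (SE 0.16, adjusted p = 0.862) and -0.39 for IDI1 (SE 0.17, adjusted p = 0.862). The other 3 members ranged from -0.74 to 0.09. The median of the members was -0.59, and -0.37 without co-culture control replicate 2, while the median of all genes was 0.00. When the fit was limited to genes averaging 10 CPM or more, MSMO1 alone passed (limma adjusted p = 0.0359).

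Whether the FFA effect in Caco-2 differed between cultures was tested directly as an interaction. The difference, co-culture minus mono-culture, was below 0 for all 8 genes, with a median of -0.90 against -0.06 over all genes, but 0 of 8 passed in limma, where 0% of all genes passed, and 0 of 8 passed in edgeR (0.0435% of all genes). Unadjusted limma p values under 0.05 were found for 6 of 8 members, against 5.02% of all genes. They were -1.65 for DHCR7 (SE 0.38), -1.26 for MSMO1 (SE 0.27), -1.05 for INSIG1 (SE 0.40), -0.93 for IDI1 (SE 0.24), -0.78 for HMGCS1 (SE 0.31) and -0.74 for FDFT1 (SE 0.23), each with a limma adjusted p = 0.82. For DHCR7, FDFT1, IDI1 and MSMO1 both FFA libraries lay above both controls in mono-culture and below both controls in co-culture, 4 of 8 members where 2.78% of all genes did so (5.67% of those averaging 50 CPM or more). DHCR7 passed without mono-culture control replicate 1 (limma adjusted p = 0.0269), and MSMO1 passed without co-culture FFA replicate 2 (limma adjusted p = 0.0474). Averaged over both cultures, the FFA effect ranged from -0.35 to 0.28, and 0 of 8 members passed in limma (0% of all genes) or in edgeR (0.196% of all genes). FDPS alone had an unadjusted p under 0.05, at 0.28 (SE 0.11, limma adjusted p = 0.829), against 4.85% of all genes. The comparisons within a line share libraries and are not independent of each other.

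The plot of FFA effects shows the estimates with their intervals.

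**Figure D2:**
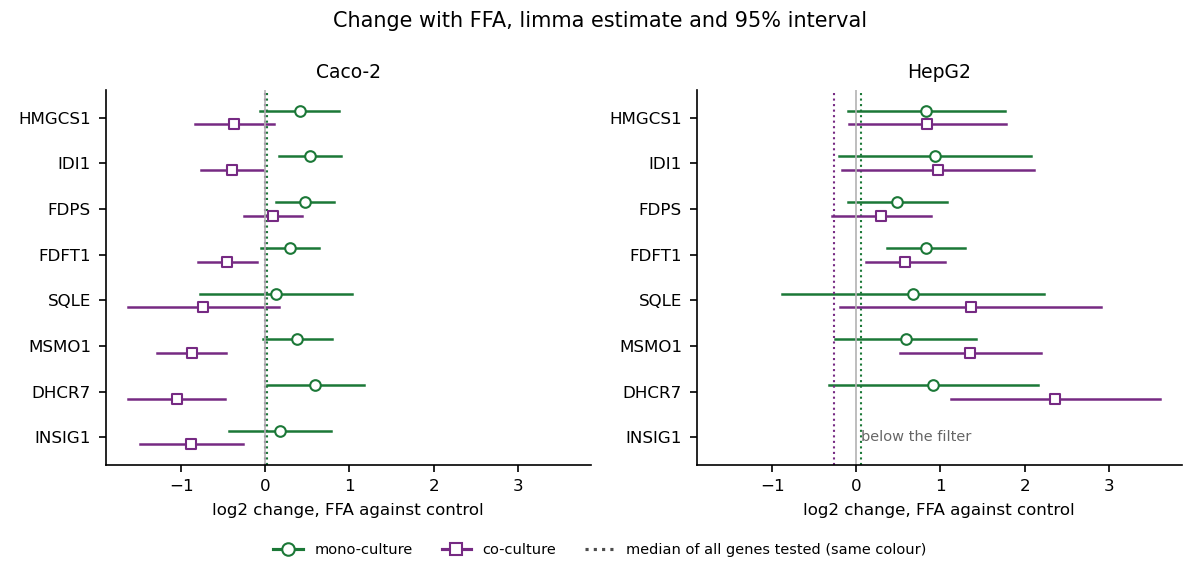
limma estimates of the log2 change with FFA (horizontal axis) for each member in mono-culture (circles) and co-culture (squares), with 95% intervals as bars, and dotted lines at the median of all genes. All symbols are open because no adjusted p was under 0.05. In Caco-2 the mono-culture estimates lie at 0.13 to 0.59 and those of co-culture at -1.05 to 0.09, whereas in HepG2 all 14 estimates are above 0.

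With FFA, MSMO1 was the member with the largest co-culture difference in Caco-2. It was at 581 and 614 CPM in mono-culture and at 139 and 212 CPM in co-culture, a change of -1.80 (SE 0.19, limma adjusted p = 0.00115), or 3.47-fold lower. It was 1 of 8 members to pass, where 0.0971% of all genes passed, and 4 of 8 had an unadjusted p under 0.05, against 7.78% of all genes. edgeR gave MSMO1 -1.80 (adjusted p = 3.36e-08) and 3 of 8 members in all, where 3.85% of 4595 genes passed. INSIG1 was at 131 and 177 CPM in mono-culture FFA and at 54.4 and 64.1 CPM in co-culture FFA, a change of -1.35 (SE 0.29, limma adjusted p = 0.153, edgeR adjusted p = 0.00056). FDFT1, at 321 and 354 CPM against 213 and 244 CPM, differed by -0.56 (SE 0.16, limma adjusted p = 0.377, edgeR adjusted p = 0.0419). DHCR7, at 79.1 and 75.5 CPM against 38.0 and 48.0 CPM, differed by -0.84 (SE 0.27, limma adjusted p = 0.468, edgeR adjusted p = 0.0574). Of the members, MSMO1 alone passed in both tools.

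In all, 7 of 8 members were lower in both co-culture FFA libraries than in both mono-culture FFA libraries, as were 14.6% of all genes (24.8% of those averaging 50 CPM or more). FDPS was the exception, with overlapping groups and a change of 0.09. The members' median was -0.66, against 0.08 over all genes, and the 4 members without an unadjusted p under 0.05 ranged from -0.77 to 0.09. The MSMO1 call depended on which library was left out. Without either co-culture FFA replicate it stayed past the threshold (limma adjusted p = 0.0296 and 0.00666), and without any single library of the other groups of Caco-2 the change was between -1.84 and -1.76 with a limma adjusted p between 0.0741 and 0.144. With a pseudocount of 0.1 the limma adjusted p was 0.0774.

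Without FFA the co-culture effect in Caco-2 went in both directions. MSMO1 was lower, at 279 and 356 CPM in co-culture against 498 and 422 CPM in mono-culture, a difference of -0.54 (SE 0.19, limma adjusted p = 0.385). IDI1 was higher, at 404 and 463 CPM against 320 and 233 CPM, by 0.66 (SE 0.17, limma adjusted p = 0.258). DHCR7 was higher, at 95.1 and 84.8 CPM against 63.0 and 41.1 CPM, by 0.81 (SE 0.27, limma adjusted p = 0.37), and FDPS by 0.47 (SE 0.16, limma adjusted p = 0.37). None passed in limma, where 0.0971% of all genes passed, or in edgeR (1.48% of all genes), and 4 of 8 had an unadjusted limma p under 0.05, against 10.3% of all genes. Groups did not overlap for these 4 genes, 3 of them higher (22.0% of all genes) and 1 lower (9.6%). The remaining members, INSIG1 at the low end, differed by -0.30 to 0.36. The median was 0.27 for the members and 0.10 for all genes, and quantile normalization moved the latter by -0.17, with the sign of these 4 changes kept. The members' median was 0.14 after quantile normalization, 0.10 after median-ratio rescaling and 0.13 in edgeR. It was 0.14 without mono-culture control replicate 2, 0.47 without co-culture control replicate 1 and 0.07 without co-culture control replicate 2.

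Averaged over treatment, MSMO1 fell by 1.17 on the log2 scale with co-culture (SE 0.14, limma adjusted p = 0.00103, edgeR adjusted p = 3.86e-08), 1 of 8 members where 0.453% of all genes passed. INSIG1 differed by -0.83 (SE 0.20, limma adjusted p = 0.096, edgeR adjusted p = 0.000988) and FDPS by 0.28 (SE 0.11, limma adjusted p = 0.365). edgeR thus gave 2 of 8, where 8.47% of all genes passed, and 3 of 8 had an unadjusted limma p under 0.05, against 11.8%. Among the 4 Caco-2 groups the F-test of limma also gave MSMO1 (adjusted p = 0.00221) as 1 of 8, against 0.155% of all genes (6 of 8 unadjusted, against 8.17%), and edgeR gave MSMO1, INSIG1 and DHCR7 (adjusted p = 7.3e-08, 0.00109 and 0.0326), against 5.09%. Leaving out a single mono-culture library or co-culture control replicate 1 moved the averaged MSMO1 effect to a limma adjusted p of 0.0733 to 0.107, and the F-test gave 0 of 8 without any single Caco-2 library other than co-culture FFA replicate 2. The sum of the 14 hepatocyte markers moved with co-culture, from 8982 to 10344 CPM in Caco-2 mono-culture libraries to 11566 to 12226 CPM in Caco-2 co-culture libraries, against 53775 to 89736 CPM in HepG2, and none of the 14 was at 0 in a Caco-2 group. The part of these markers in the co-culture results was not tested.

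The plot of co-culture effects gives the estimates for both lines.

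**Figure D3:**
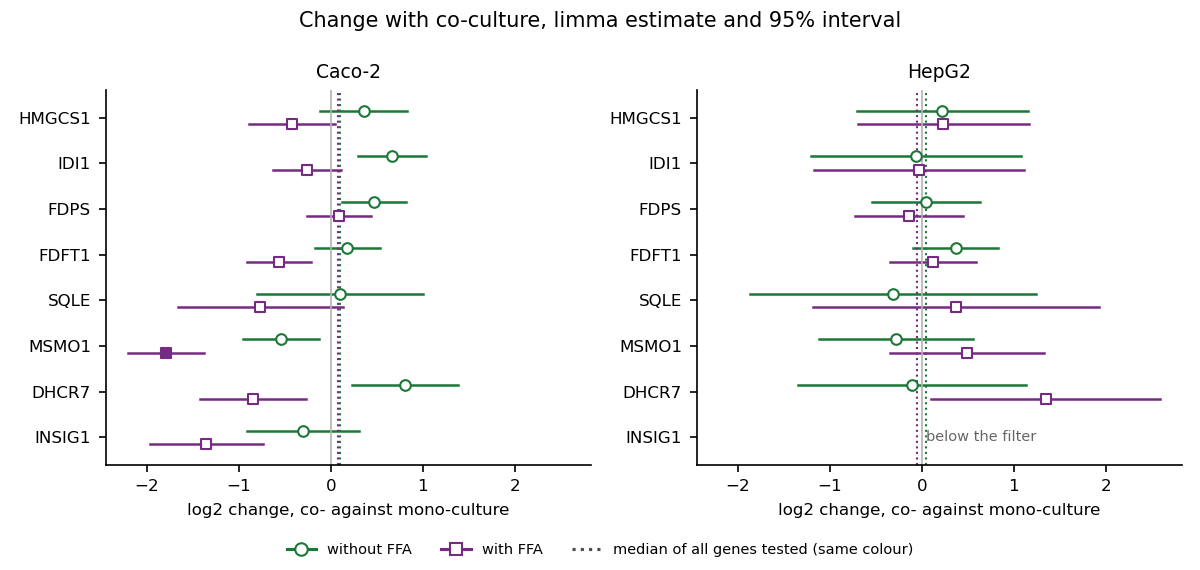
limma estimates of the log2 change with co-culture (horizontal axis) for each member without FFA (circles) and with FFA (squares), with 95% intervals as bars and dotted lines at the median of all genes. Filled symbols mark an adjusted p under 0.05, which only MSMO1 in Caco-2 with FFA reached, at -1.80.

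In HepG2 the 7 members with enough reads all had a higher mean with FFA, in mono-culture as well as in co-culture. In mono-culture, FDFT1 was at 239 and 236 CPM in the control and at 346 and 513 CPM with FFA. HMGCS1 was at 46.4 and 23.5 CPM in the control and at 54.2 and 65.5 CPM with FFA. IDI1 was at 83.6 and 61.6 CPM in the control and at 113 and 167 CPM with FFA. Groups did not overlap for these 3 genes, nor for SQLE, at 20.9 and 22.5 CPM against 42.4 and 29.1 CPM. MSMO1, at 118 and 92.9 CPM against 120 and 207 CPM, was also without overlap, but by less than 1 read. Control replicate 1 and FFA replicate 1 each held 51 reads of MSMO1. Groups overlapped for FDPS, at 376 and 322 CPM against 370 and 640.3 CPM, and for DHCR7, at 27.9 and 11.7 CPM against 25.9 and 47.3 CPM. So 5 of 7 genes were higher in both FFA libraries, as were 20.2% of 14430 genes tested (31.9% of those averaging 50 CPM or more).

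The changes in HepG2 mono-culture ran from 0.48 to 0.93, with a median of 0.83 against 0.06 over all genes. The members' median was 0.41 without mono-culture control replicate 2 and 0.54 without mono-culture FFA replicate 2. limma gave 0 of 7, as it gave 0% of all genes, with 1 unadjusted p under 0.05 (6.26% of all genes). That was FDFT1, the squalene synthase, at 0.83 (SE 0.20, limma adjusted p = 0.712). edgeR gave FDFT1 alone (0.70, adjusted p = 0.0358), 1 of 7 where 0.744% of 4030 genes passed.

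In HepG2 co-culture the FFA libraries were the shallow ones, so reads are given as well. DHCR7 was at 15.7 and 18.0 CPM in the control (26 and 17 reads) and at 68.0 and 121 CPM with FFA (10 and 6 reads). MSMO1 was at 77.2 and 96.2 CPM in the control and at 163 and 302 CPM with FFA (24 and 15 reads). FDFT1 was at 280 and 335 CPM in the control and at 455 and 463 CPM with FFA (67 and 23 reads). Both FFA libraries were higher than both controls in all 3 genes. The same held for HMGCS1, from 33.8 and 44.4 CPM to 81.6 and 60.4 CPM (12 and 3 reads with FFA). It also held for IDI1, from 68.2 and 68.7 CPM to 74.8 and 242 CPM (11 and 12 reads). FDPS went from 346 and 372 CPM to 388 and 504 CPM (57 and 25 reads). SQLE went from 17.5 and 16.9 CPM to 20.4 and 101 CPM, on 3 and 5 reads. In FFA replicate 1, 1 read stood for 6.80 CPM, more than the margin of IDI1 or SQLE over the higher control. In FFA replicate 2, 1 read stood for 20.1 CPM, more than the margin of HMGCS1 over the higher control. All 7 genes were higher without overlap, as were 17.4% of all genes tested, and as were 36.3% of those averaging 50 CPM or more, where 5 of 5 members were.

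limma gave 0 of 7 for FFA in HepG2 co-culture, as it gave 0% of all genes, with 3 unadjusted p values under 0.05 (15.9% of all genes). These were DHCR7 at 2.37 (SE 0.54, limma adjusted p = 0.146), MSMO1 at 1.36 (SE 0.37, adjusted p = 0.194) and FDFT1 at 0.58 (SE 0.20, adjusted p = 0.263), and the other 4 ranged from 0.30 to 1.36. edgeR gave DHCR7 (2.06, adjusted p = 0.0164) and MSMO1 (1.00, adjusted p = 0.0496), 2 of 7 where 7.99% of all genes passed. From summed reads, DHCR7 stood at 4.92 times its control level, with a 95% interval of 2.59 to 8.92 from counting error alone, MSMO1 at 2.36 times (1.63 to 3.32) and FDPS at 1.17 times (0.923 to 1.47), while edgeR put FDPS at -0.01 on the log2 scale. The members' median was 0.97, against -0.26 over all genes and 0.09 over those averaging 50 CPM or more. Quantile normalization moved the median of all genes by 0.22 and median-ratio rescaling moved it by -0.18, and the members' median stayed above 0 in both, as low as 0.55 over all settings. Without co-culture FFA replicate 1 limma gave 4 of 7 members, and without replicate 2 it gave 0, with member medians of 1.80 and 0.57.

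Averaged over both cultures, the FFA effect in HepG2 was 1.64 for DHCR7 (SE 0.38, limma adjusted p = 0.173, edgeR adjusted p = 0.00668), 0.97 for MSMO1 (SE 0.26, limma adjusted p = 0.199, edgeR adjusted p = 0.0125) and 0.70 for FDFT1 (SE 0.14, limma adjusted p = 0.134, edgeR adjusted p = 0.00872). It was 0.95 for IDI1 (SE 0.35, limma adjusted p = 0.297) and 0.84 for HMGCS1 (SE 0.29, limma adjusted p = 0.267). limma gave 0 of 7 (0.0762% of all genes), with 5 of 7 unadjusted p values under 0.05 (13.8% of all genes), and edgeR gave 3 of 7 (13.3% of all genes). Without co-culture FFA replicate 1 limma gave 5 of 7, and without mono-culture FFA replicate 1 it gave 1. The interaction with culture in HepG2 ranged from -0.24 to 1.45, with 0 of 7 in limma (0% of all genes), 0 of 7 unadjusted p values under 0.05 (6.94% of all genes) and 0 of 7 in edgeR (0% of all genes). The F-test over the 4 HepG2 groups gave 0 of 7 in limma (3 unadjusted, against 12.2% of all genes) and FDFT1, MSMO1 and DHCR7 in edgeR, where 8.76% of all genes passed.

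No member passed a test for co-culture in HepG2. Without FFA the changes ran from -0.32 for SQLE to 0.37 for FDFT1, and the intervals of DHCR7 (-1.35 to 1.13) and IDI1 (-1.21 to 1.07) were wide. With FFA they ran from -0.14 to 1.35, and DHCR7 was the only member with an unadjusted p under 0.05, at 25.9 and 47.3 CPM in mono-culture FFA and 68.0 and 121 CPM in co-culture FFA (1.35, SE 0.54, limma adjusted p = 0.301). limma gave 0 of 7 in both comparisons and in their average, as it gave 0% of all genes. Unadjusted p values under 0.05 were found for 0, 1 and 0 members, against 2.61%, 14.7% and 7.72% of all genes, and edgeR gave 0 of 7 in each, against 0.347%, 0.422% and 1.17%. Without co-culture FFA replicate 1, limma gave 1 of 7 with FFA.

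The FFA effects of the lines were then compared in a fit over all 16 libraries, a comparison added after the values had been seen. In co-culture the effect in HepG2 exceeded that in Caco-2 by 3.42 for DHCR7 (SE 0.62, limma adjusted p = 0.0314, edgeR adjusted p = 0.00052). For MSMO1 the difference was 2.23 (SE 0.45, limma adjusted p = 0.0512, edgeR adjusted p = 0.00306). DHCR7 was 1 of 8 members to pass in limma, where 0.422% of 17544 genes passed, and edgeR gave 2 of 8, where 7.16% passed. FDFT1 (1.03, SE 0.27, limma adjusted p = 0.114), HMGCS1 (1.21, SE 0.47, adjusted p = 0.275), IDI1 (1.36, SE 0.56, adjusted p = 0.311) and SQLE (2.09, SE 0.83, adjusted p = 0.284) had unadjusted p values under 0.05, which makes 6 of 8, against 13.2% of all genes. Without HepG2 mono-culture control replicate 1 the limma adjusted p of DHCR7 was 0.0578, and without HepG2 co-culture control replicate 2 it was 0.106, so that 0 of 8 passed. Without HepG2 co-culture FFA replicate 1, 5 of 8 passed, and without a HepG2 mono-culture FFA library or Caco-2 co-culture FFA replicate 2, 2 to 3 passed. In co-culture 5 of 8 members had both FFA libraries below both controls in Caco-2 and above both in HepG2, where 3.20% of all genes did so (12.1% of those averaging 50 CPM or more, with 4 of 7 members). In mono-culture the difference between the lines ranged from -0.67 to 0.55, and 0 of 8 passed in limma (0% of all genes, and 0 of 8 with an unadjusted p under 0.05, against 5.46%) or in edgeR (0.0392% of all genes).

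The levels themselves differed between the lines for most of the members. Over 8 libraries each, HMGCS1 had a lowest, median and highest level of 113, 150 and 195 CPM in Caco-2 and of 23.5, 50.3 and 81.6 CPM in HepG2, so the lines did not overlap. IDI1 was at 233, 346 and 463 CPM in Caco-2 and at 61.6, 79.2 and 242 CPM in HepG2. MSMO1 was at 139, 389 and 614 CPM in Caco-2 and at 77.2, 119 and 302 CPM in HepG2. DHCR7 was at 38.0, 69.2 and 95.1 CPM in Caco-2 and at 11.7, 26.9 and 121 CPM in HepG2. For IDI1, MSMO1 and DHCR7 the lines overlapped through HepG2 FFA libraries, and no HepG2 control library reached the lowest Caco-2 library.

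Averaged over the 4 conditions, HepG2 differed from Caco-2 by -1.61 for HMGCS1 (SE 0.17, limma adjusted p = 4.25e-06), -1.84 for IDI1 (SE 0.20, adjusted p = 6.73e-06), -1.38 for MSMO1 (SE 0.16, adjusted p = 1.2e-05) and -0.96 for DHCR7 (SE 0.22, adjusted p = 0.00409). FDFT1, FDPS and SQLE differed by less. FDFT1 was at 213, 280.0 and 354 CPM in Caco-2 and at 236, 341 and 513 CPM in HepG2. It was higher in HepG2 by 0.27 (SE 0.10, limma adjusted p = 0.0449, edgeR adjusted p = 0.0524). This call was lost without a filter (limma adjusted p = 0.0528), with array weights (0.0554), after quantile normalization (0.0736) and after median-ratio rescaling (0.329). The FDFT1 difference was 0.20 to 0.34 with 1 library left out. FDPS, at 358, 488 and 617 CPM and 322, 374 and 640.3 CPM, differed by -0.28 (SE 0.12, limma adjusted p = 0.0859, edgeR adjusted p = 0.00044). SQLE, at 11.1, 19.9 and 29.7 CPM and 16.9, 21.7 and 101 CPM, differed by 0.50 with an interval of -0.13 to 1.13. In all, 6 of 8 members passed in limma, where 30.3% of all genes passed, 5 lower and 1 higher in HepG2 (17.9% and 12.5% of all genes). Unadjusted p values under 0.05 were found for 7 of 8, against 40.4%. edgeR also gave 6 of 8, all lower, where 66.9% of all genes passed. Each side is a single line, so the test covers these libraries only.

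INSIG1 was the member that separated the lines most. It had 515 reads over the 8 Caco-2 libraries, from 54.4 to 177 CPM, and 2 reads over the 8 HepG2 libraries, 1 in mono-culture control replicate 2 and 1 in co-culture control replicate 1. By summed reads it was 261 times higher in Caco-2, with a 95% counting interval of 71.9 to 2160 (limma adjusted p = 4.06e-10). The HepG2 reads were under the detection floor of every library. INSIG2, the close relative that also holds back SREBP but is not itself a strong SREBP target, went the other way, with 179 reads in Caco-2 and 690 in HepG2. It was at 16.4, 40.3 and 57.9 CPM in Caco-2 and at 110, 153 and 201 CPM in HepG2, higher by 2.1 (SE 0.14, limma adjusted p = 5.17e-08) and without overlap. HMGCS1 and INSIG1 were the 2 of 8 members for which every HepG2 library lay below every Caco-2 library, as for 5.97% of all genes.

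The plot of both INSIG genes shows this contrast by library.

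**Figure D4:**
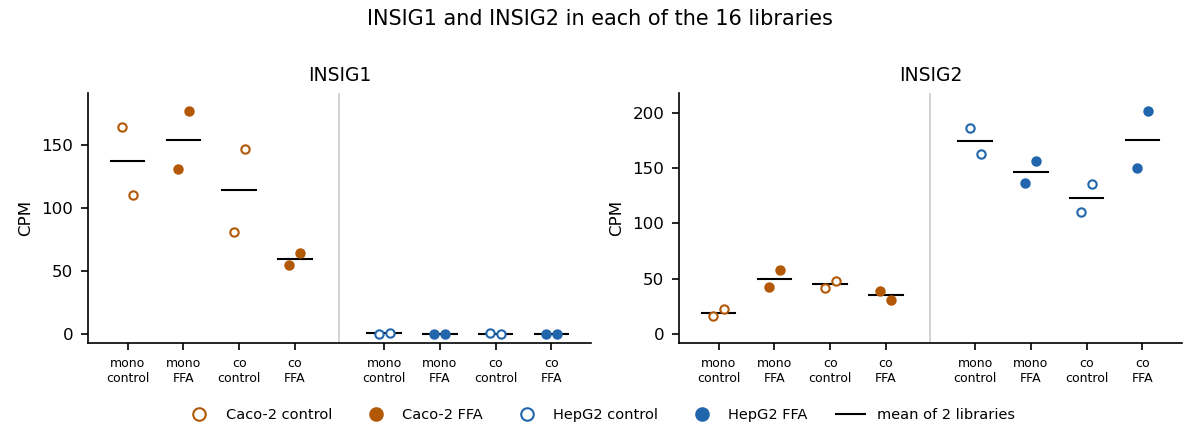
Level in CPM (vertical axes, linear) of INSIG1 and INSIG2 in each library by group (horizontal axis), open points for control and filled points for FFA, with a bar at the mean of the 2 libraries. INSIG1 lies at 54.4 to 177 CPM in Caco-2 (orange) and at 0 to 0.98 CPM in HepG2 (blue), and INSIG2 lies at 16.4 to 57.9 CPM in Caco-2 and at 110 to 201 CPM in HepG2.

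The remaining genes of the pathway were taken from a list of 14 further enzymes and 18 genes of sterol sensing, uptake and export, of which 31 could be tested. Between the lines 13 of 31 passed in limma, 10 lower and 3 higher in HepG2, against 30.3% of all genes. Among the lower genes, TMEM97, a sterol-binding membrane protein, was at 361 to 535 CPM in Caco-2 and 40.3 to 94.6 CPM in HepG2 (-2.62, SE 0.14, limma adjusted p = 3.26e-09). EBP, the sterol isomerase, was at 297 to 384 CPM and 82.1 to 130 CPM (-1.65, SE 0.11, limma adjusted p = 5.75e-08), and SC5D, the desaturase before DHCR7, was at 113 to 242 CPM and 25.3 to 102 CPM (-1.72, SE 0.16, adjusted p = 1.76e-06). None of these 3 genes overlapped between the lines. MVD (-1.30), GGPS1 (-1.19), STARD4 (-0.94), NR1H3 (-0.84) and MYLIP (-2.20) were also lower in HepG2, with limma adjusted p values of 0.00209, 0.000324, 0.011, 0.0368 and 0.00374, and PMVK (0.94, adjusted p = 0.0179) and MBTPS1 (0.90, adjusted p = 0.00776) were higher besides INSIG2.

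Within a line, 0 of 31 of these genes passed in limma in any comparison. In Caco-2 the smallest p values belonged to CYP51A1, the sterol demethylase ahead of MSMO1, with -0.86 for co-culture with FFA (SE 0.20, limma adjusted p = 0.17, edgeR adjusted p = 0.00884), to INSIG2, with 1.32 for FFA in mono-culture (SE 0.33, limma adjusted p = 0.837), and to MVK, the mevalonate kinase, with 3.11 for FFA in mono-culture (SE 0.84, limma adjusted p = 0.837) on 0 and 4 reads against 12 and 8 reads. CYP51A1 was at 151 and 143 CPM in Caco-2 mono-culture FFA and at 75.9 and 85.0 CPM in co-culture FFA. In HepG2 co-culture, SC5D was at 25.3 and 41.2 CPM in the control and at 102 and 80.6 CPM with FFA (1.46, SE 0.35, limma adjusted p = 0.157, edgeR adjusted p = 0.0491). MVD, the last enzyme of the mevalonate route, was at 10.9 and 9.5 CPM in the control and at 74.8 and 40.3 CPM with FFA (2.32, SE 0.68, limma adjusted p = 0.215, edgeR adjusted p = 0.0136), on 11 and 2 reads with FFA. The median change of the list was 0.24 with FFA in Caco-2 mono-culture, -0.12 in Caco-2 co-culture, 0.19 in HepG2 mono-culture and -0.16 in HepG2 co-culture, each beside the member medians of 0.40, -0.59, 0.83 and 0.97.

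Genes whose pattern over the 8 libraries of a line was most like the mean of the members were ranked by Pearson's r among genes averaging 50 CPM or more. In Caco-2 they included APOLD1 (r = 0.933), GUK1 (0.925), DDX47 (0.917) and ACTG1 (0.917), out of 1916 genes. In HepG2 they were AL135905.2 (0.979), WARS (0.978), NSFL1C (0.977), TRIB3 (0.976) and TUBG1 (0.976), out of 2024 genes. The r values describe 8 libraries that share their groups and depth, and the highest of many r values is large by selection.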

How the data were processed

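Polyadenylated RNA of 16 Caco-2 and HepG2 cultures was sequenced as PCR-amplified cDNA on Nanopore flow cells. The submitters' processing notes name minimap2 2.22 and GRCh38. The study's methods describe STAR mapping and RSEM quantification for mRNA-seq reads without stating whether this was used for the Nanopore libraries, so the step that assigned these reads to genes is not given in the sources used here. The authors deposited per-gene values named as TPM, which were found to be CPM, since the values were whole multiples of a fixed step per library. As written, 99.3% to 100% of the values above 0 in a library were whole within 0.05 reads. With rounding of the written values allowed for, 100% were whole in every library. Recovered reads were used as counts in edgeR 4.0.16 (quasi-likelihood test), as an alternative.

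Per line, genes averaging at least 1 CPM in a group were fitted with limma 3.58.1 (R 4.3.3) on log2(CPM + 1), with Benjamini-Hochberg adjustment over all genes tested. Between lines, all 16 libraries entered 1 fit. Scripts were tested on simulated data. All 8 genes were named with their values, with SE and adjusted p where the unadjusted p was under 0.05. Of the pathway list, genes with an adjusted p under 0.05 in a comparison were named and, where none passed within a line, the 3 with the smallest unadjusted p. Some genes that the naming rules would name are not reported here. The 8 genes and all lists were chosen with earlier results of these data known. Positions came from GENCODE 44, matched by identifier for 60295 of 60623 genes. Alternatives covered pseudocount, filter, scaling, array weights, a replicate block and each library left out.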

Additional observations from a re-analysis of the deposited data

Results flagged for a closer look

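In Caco-2, 4 genes had both FFA libraries above both controls in mono-culture and below both controls in co-culture, which was 4 of 8 members and 2.78% of all genes tested (5.67% of those averaging 50 CPM or more). The FFA effect in co-culture minus that in mono-culture, on the log2 scale, was -1.65 for DHCR7 (SE 0.38, limma adjusted p = 0.82, edgeR adjusted p = 0.125) and -1.26 for MSMO1 (SE 0.27, limma adjusted p = 0.82, edgeR adjusted p = 0.122). It was -0.93 for IDI1 (SE 0.24, limma adjusted p = 0.82, edgeR adjusted p = 0.404) and -0.74 for FDFT1 (SE 0.23, limma adjusted p = 0.82, edgeR adjusted p = 0.667). The difference itself did not pass in either tool.

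In co-culture, 5 genes had both FFA libraries below both controls in Caco-2 and above both controls in HepG2, which was 5 of 8 members and 3.20% of all genes tested (12.1% of those averaging 50 CPM or more, with 4 of 7 members). The comparison between the lines was added after the values had been seen. The FFA effect in HepG2 minus that in Caco-2 was 3.42 for DHCR7 (SE 0.62, limma adjusted p = 0.0314, edgeR adjusted p = 0.00052), which passed in both tools. It was 2.23 for MSMO1 (SE 0.45, limma adjusted p = 0.0512, edgeR adjusted p = 0.00306), which passed in edgeR alone. For SQLE it was 2.09 (SE 0.83, limma adjusted p = 0.284), for IDI1 1.36 (SE 0.56, limma adjusted p = 0.311) and for FDFT1 1.03 (SE 0.27, limma adjusted p = 0.114), and none of these 3 passed in edgeR. The HepG2 co-culture FFA libraries held 147096 and 49634 reads, and the part of their depth in these differences was not tested. DHCR7 had 10 and 6 reads in them. Its limma call depended on which library was left out, with the difference between 3.01 and 3.83. In replicate 1 of these libraries, IDI1 and SQLE exceeded the higher control by less than the 6.80 CPM of 1 read.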

How the results depend on the processing

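With 2 libraries a group and 33.4-fold unequal depth, few reads stood behind the low genes. The 49 log2 changes followed through the alternatives were those with an unadjusted p under 0.05 in the main fit. They kept their direction in every alternative, which that selection favours. Changes outside the selection were not followed gene by gene. The members' median for co-culture with FFA in HepG2 was 0.23 in the main fit and as low as -0.08 in an alternative. Of 330 recomputed counts of members passing, 273 stayed within 1.5 times the reported count, but a count of 0 that stayed 0 was included. Counts of 1 member moved more often. In Caco-2, 5 stayed and 11 moved for co-culture with FFA, 6 and 10 for the co-culture average, and 5 and 11 for the 4 groups. For FFA in co-culture between the lines, 13 stayed and 11 moved. For HepG2 against Caco-2, 24 stayed and 0 moved. In Caco-2, edgeR gave 3 members for co-culture with FFA, 2 for the co-culture average and 3 for the difference among the 4 groups, where limma gave 1 each. A pseudocount of 0.1 gave 0 for co-culture with FFA and for the 4 groups. No filter gave 2 for these and for the average, as did a minimum of 10 CPM, which also gave 1 for FFA in co-culture, for co-culture without FFA and for the interaction. Quantile normalization gave 2 for the average. In HepG2, edgeR gave 1 for FFA in mono-culture, 2 in co-culture, 3 on average and 3 among the 4 groups, where limma gave 0. For the FFA effect in co-culture between the lines, edgeR, a pseudocount of 0.1, a minimum of 10 CPM and quantile normalization gave 2 in place of 1. Their cause was not tested.

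The replicate block gave 2 members for co-culture with FFA, for the co-culture average and for FFA in co-culture between the lines, and changed no other count by more than 1.5 times. Deviations of same-numbered libraries had a mean correlation of 0.0142 in Caco-2 and 0.00866 in HepG2. Over genes averaging 100 CPM or more it was 0.151 in Caco-2 (-0.0172 to 0.291 over 6 pairs of groups) and 0.0529 in HepG2 (-0.103 to 0.121), so not every pair was over 0.1 and the numbers were not taken to pair the libraries.

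Leaving out 1 library at a time gave 0 to 1 member for co-culture with FFA, the co-culture average, the interaction and the 4 groups in Caco-2. In HepG2 it gave 0 to 4 for FFA in co-culture, 0 to 1 for co-culture with FFA, 0 to 5 for the FFA average and 0 to 2 for the 4 groups, and 0 to 5 for FFA in co-culture between the lines. The upper ends came without HepG2 co-culture FFA replicate 1.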
